A study of Mus musculus with 7 samples.

Results

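The genes were Tgfb1, its receptors Tgfbr1, Tgfbr2 and Tgfbr3, the transducers Smad2, Smad3 and Smad4, the inhibitory Smad7, and the repressors Ski and Skil. Their RNA was followed in long-term haematopoietic stem cells (LT-HSCs) with and without the surface sialomucin endomucin. These 10 genes were taken by symbol from a table of 54347 gene identifiers. All 10 were found once each, and all 10 passed the filter on low counts. The 3 KO libraries came from female Emcn-/- mice and the 4 WT libraries from female Emcn+/+ littermates. Both genotypes carry the strain label C57BL/6N-EMCN em1(IMPC)Wtsi /WtsiH, and neither the age of the mice nor the exons removed from Emcn is stated in the labels. Each library came from 1 mouse, and libraries are named by genotype and mouse number (ko_306). The cells were sorted from hind leg marrow after depletion of lineage-positive cells, with antibodies that included Sca-1, c-kit, CD150, CD48 and CD16/CD32, and total-RNA libraries were made from very small inputs.

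TGF-beta is secreted in a latent form and, once released, binds the type II receptor encoded by Tgfbr2, which activates the type I receptor encoded by Tgfbr1. That kinase phosphorylates SMAD2 and SMAD3, which enter the nucleus with SMAD4, while SMAD7 blocks the receptor and SKI and SnoN (the product of Skil) repress SMAD target genes. In bone marrow the pathway is known for holding stem cells in quiescence. RNA levels do not measure the phosphorylation steps through which the pathway acts.

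The libraries held 6648881 to 11101774 counts in KO and 6444134 to 10322741 in WT. Emcn had 1, 0 and 0 counts in KO libraries and 130, 327, 223 and 216 counts in WT libraries, as the labels imply. All 12 LT-HSC markers had counts, with Kit, the receptor of stem cell factor, at 567.7 to 781.7 CPM in KO and 490.6 to 792.6 CPM in WT, and the homeobox gene Meis1 at 515.4 to 640.6 CPM in KO and 292.7 to 701.7 CPM in WT. At the low end, Hoxb5 had 3.73 to 4.33 CPM in KO and 4.73 to 9.12 CPM in WT, and Ly6a, which encodes Sca-1, had its lowest value, 13.1 CPM, in ko_314 and its highest, 23.8 CPM, in wt_310. CPM is the count of a gene as a share of its library, per 1000000 counts, scaled between libraries with TMM factors. One WT library, wt_284, stood apart. Its LT-HSC markers summed to 1759.1 CPM, against 2693.8 to 2866.7 CPM in KO and 2577.9 to 2920.3 CPM in the remaining WT mice. The 15 myeloid markers summed to 218.4 to 478.6 CPM in KO, against 9315.6 CPM in wt_284 and 239.4 to 977.5 CPM in the other WT libraries. Erythroid markers (11 of 12 in the table) summed to 642.6 to 821.5 CPM in KO, against 4146.1 CPM in wt_284 and 612.2 to 1341.2 CPM in the other WT libraries. Most of the erythroid sum in KO came from Car2, at 470.2 to 575.1 CPM. Car2 had 631.8 CPM in wt_284 and 370.4 to 647.9 CPM in the other WT libraries. In such bulk samples, fewer cells of a type and less RNA per cell cannot be told apart.

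Emcn-deficient and wild-type LT-HSCs carried these 10 transcripts at levels that overlapped for every gene. Of the 10 genes, 0 passed an adjusted p of 0.05 in edgeR's quasi-likelihood test over 15372 genes, 0 had an unadjusted p under 0.05, and 0 had groups that did not overlap. Over all tested genes, 0% were called higher and 0.00651% (1 gene, Emcn) lower, 3.27% had an unadjusted p under 0.05, and groups did not overlap for 4.86%. Log2 fold changes, KO minus WT, were positive for 5 genes and negative for 5, and 52.4% of all tested genes were negative. Their median was -0.0524, beside -0.0189 over all tested genes. For all 10 genes the 95% interval excluded a 2-fold difference in both directions, as it did for 49.6% of all tested genes and for 76.5% of the 9896 genes with a mean of at least 10 CPM. It excluded a 1.5-fold difference for 5 of them, Tgfbr2, Tgfbr3, Smad2, Smad4 and Ski, and for 32.5% of genes at that level. Differences larger than these bounds fall outside the intervals, and some smaller ones fall inside them.

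**Figure D1:**
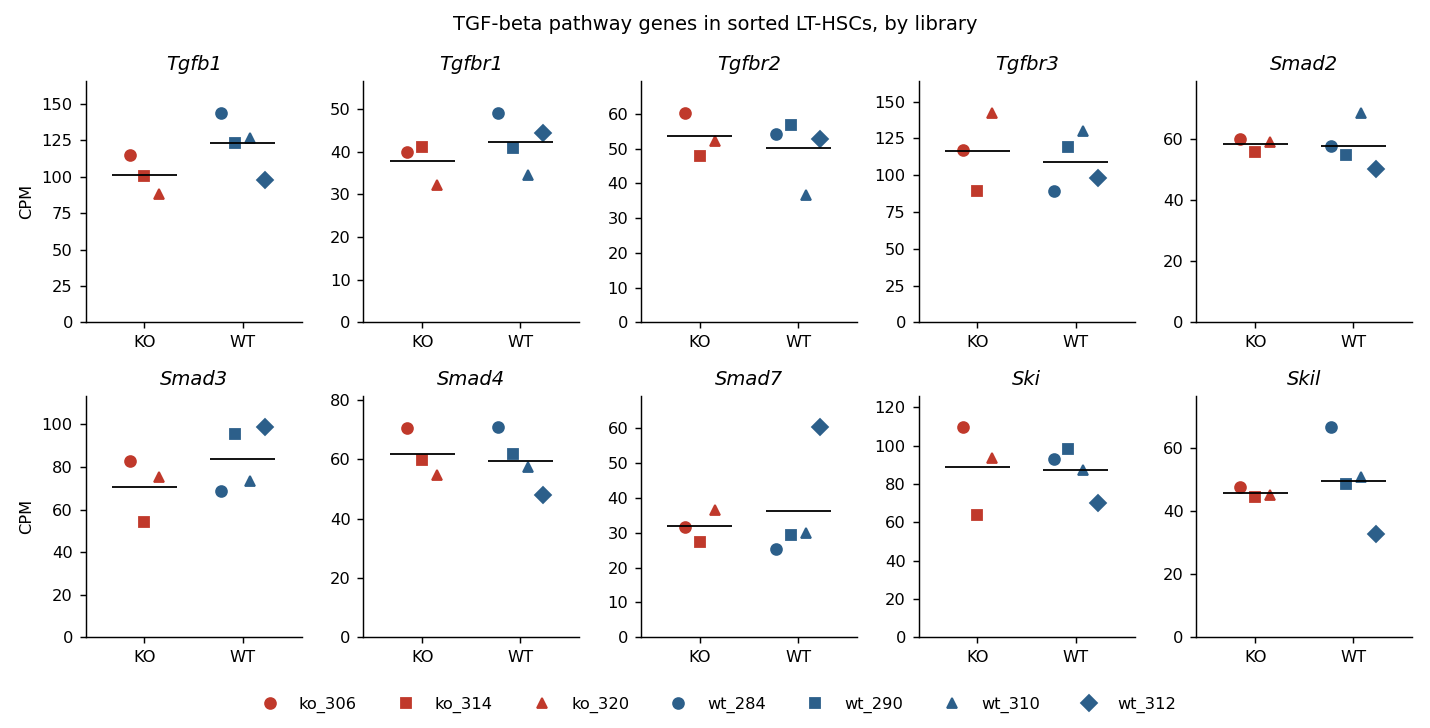
CPM (vertical axes, each starting at 0) of the 10 genes in each of 3 KO and 4 WT libraries, with the mean of each group as a line. The groups overlap in every panel, and in the Smad7 panel wt_312 stands above the other WT libraries at 60.2 CPM.

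Tgfb1 encodes the ligand TGF-beta 1 (ENSMUSG00000002603.15, chromosome 7 from 25687002 to 25705077 on the plus strand in GRCm38). It stood at 115.2, 100.7 and 88.0 CPM in ko_306, ko_314 and ko_320, against 144.2, 123.2, 126.7 and 97.9 CPM in wt_284, wt_290, wt_310 and wt_312. All KO libraries lay below 3 of the WT libraries, and wt_312 lay within the KO range. The means were 101.3 ± 13.6 CPM (SD, n = 3) in KO and 123 ± 19.1 CPM (SD, n = 4) in WT. The log2 fold change was -0.28 ± 0.17 (SE), with a 95% interval from -0.65 to 0.09, an unadjusted edgeR p of 0.127 and an adjusted p of 0.992. This was the smallest unadjusted p among the 10 genes. Without wt_312 it fell to 0.0441 (adjusted p 0.726, log2 fold change -0.36), and without wt_284 it was 0.276 (log2 fold change -0.19).

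Tgfbr1 encodes the type I receptor kinase (ENSMUSG00000007613.15, chromosome 4 from 47353222 to 47414931, plus strand). It had 40.0, 41.2 and 32.3 CPM in KO libraries, against 49.2, 40.8, 34.5 and 44.4 CPM in WT libraries. The ranges overlapped broadly, with a log2 fold change of -0.16 and an interval from -0.60 to 0.29. Tgfbr2 encodes the ligand-binding type II receptor kinase (ENSMUSG00000032440.13, chromosome 9 from 116084293 to 116175360, minus strand). It had 60.4, 47.9 and 52.2 CPM in KO libraries, against 54.3, 56.9, 36.7 and 52.9 CPM in WT libraries. Its lowest value was that of wt_310, and the log2 fold change was 0.09 with an interval from -0.35 to 0.53. Per kilobase of merged exons, the ratio of Tgfbr2 to Tgfbr1 was 1.14 ± 0.188 (SD, n = 3) in KO and 0.948 ± 0.119 (SD, n = 4) in WT, with overlapping groups. The RNAs of the receptor pair were thus present at nearly the same level per length in both genotypes.

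Tgfbr3 encodes betaglycan, a co-receptor without kinase activity that presents the ligand to the type II receptor (ENSMUSG00000029287.14, chromosome 5 from 107106570 to 107289629, minus strand). It was the most variable of the 3 receptors in KO, with 117.0, 89.0 and 142.6 CPM, against 89.0, 119.2, 130.2 and 98.2 CPM in WT libraries. The lowest values of both genotypes were the same, and the log2 fold change was 0.09 with an interval from -0.33 to 0.51. Its annotated span holds 3 other gene models on the same strand that are listed as TEC (awaiting experimental support), with 419, 220 and 612 counts over all libraries beside 6689 for Tgfbr3. The labels do not state how reads were shared among these models.

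Smad2 and Smad3 encode the receptor-activated SMADs of this branch. Smad2 (ENSMUSG00000024563.16, chromosome 18 from 76241580 to 76310963, plus strand) was the most even gene in KO, at 59.9, 55.8 and 59.0 CPM, against 57.5, 54.8, 68.6 and 50.0 CPM in WT libraries. Its means were 58.2 ± 2.18 CPM (SD, n = 3) in KO and 57.7 ± 7.91 CPM (SD, n = 4) in WT, a log2 fold change of 0.01 with an interval from -0.37 to 0.39. The KO values lay inside the WT range. Smad3 (ENSMUSG00000032402.12, chromosome 9 from 63646767 to 63757994, minus strand) had 82.8, 54.1 and 75.5 CPM in KO libraries, against 68.5, 95.3, 73.4 and 98.6 CPM in WT libraries. The genotypes overlapped, and the log2 fold change was -0.24 ± 0.20 (SE) with an interval from -0.68 to 0.19 and an unadjusted edgeR p of 0.249. The ratio of Smad3 to Smad2 per length was 2.19, 1.54 and 2.03 in KO, against 1.89, 2.76, 1.69 and 3.13 in WT. Smad3 RNA thus exceeded Smad2 RNA in each of the 7 libraries, by a factor that overlapped between genotypes.

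Smad4 encodes the common partner of the activated SMADs (ENSMUSG00000024515.13, chromosome 18 from 73639009 to 73703780, minus strand). It had 70.6, 59.9 and 54.6 CPM in KO libraries, against 70.8, 61.8, 57.5 and 48.0 CPM in WT libraries. The highest values of the genotypes were nearly equal, and the log2 fold change was 0.05 with an interval from -0.36 to 0.46.

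Smad7 encodes the inhibitory SMAD that is itself induced by TGF-beta (ENSMUSG00000025880.11, chromosome 18 from 75367529 to 75395935, plus strand). It had 31.7, 27.3 and 36.4 CPM in KO libraries, against 25.2, 29.3, 30.0 and 60.2 CPM in wt_284, wt_290, wt_310 and wt_312. One WT library, wt_312, set both the mean and the spread of the WT group, at 36.2 ± 16.2 CPM (SD, n = 4) beside 31.8 ± 4.57 CPM (SD, n = 3) in KO. The log2 fold change was -0.18 with an interval from -0.84 to 0.47, the widest of the 10 genes, and without wt_312 it turned to 0.19 (adjusted p 0.882). The ratio of Smad7 to Smad3 per length was 0.559 ± 0.0795 (SD, n = 3) in KO and 0.519 ± 0.161 (SD, n = 4) in WT, where wt_312 had 0.749 and the other WT libraries 0.377 to 0.501.

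Ski and Skil encode related repressors that bind the SMAD complex and are degraded when the pathway is active. Ski (ENSMUSG00000029050.15, chromosome 4 from 155154075 to 155222592, minus strand) had 109.6, 64.0 and 93.6 CPM in KO libraries, against 93.2, 98.5, 87.4 and 70.2 CPM in WT libraries. The KO range enclosed the WT range, and the log2 fold change was 0.03 with an interval from -0.41 to 0.47. Skil, whose gene is also a SMAD target (ENSMUSG00000027660.16, chromosome 3 from 31095058 to 31122577, plus strand), had 47.6, 44.3 and 45.1 CPM in KO libraries, against 66.5, 48.4, 50.7 and 32.6 CPM in WT libraries. Here the WT range enclosed the KO range, with wt_284 highest and wt_312 lowest. The log2 fold change was -0.12 with an interval from -0.62 to 0.38, and it turned to 0.06 without wt_284.

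**Figure D2:**
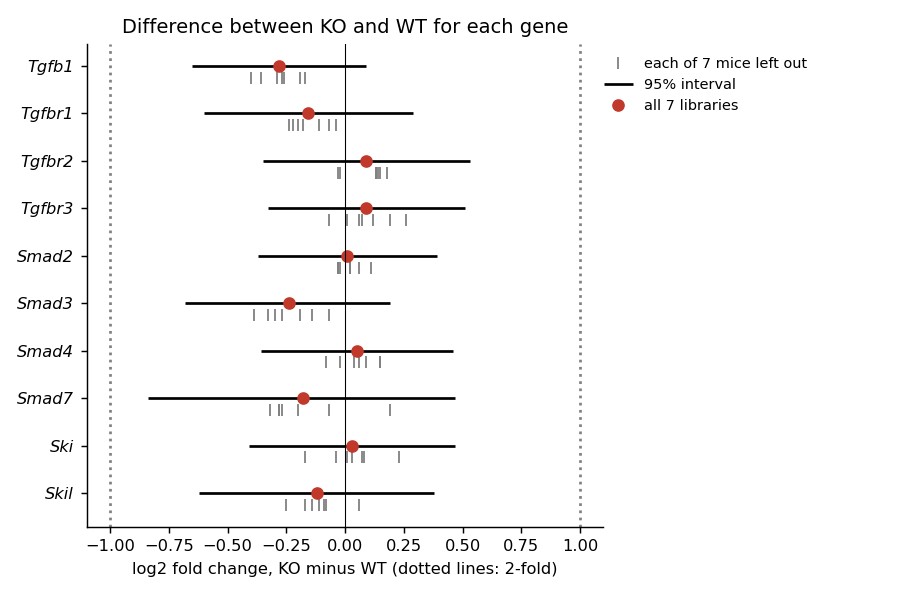
Log2 fold change, KO minus WT (horizontal axis), of the 10 genes, with all 7 libraries (red points), its 95% interval (black lines) and with each mouse left out (grey ticks). Every interval crosses 0 and stays within the dotted 2-fold lines, and Tgfb1 has the lowest value at -0.28.

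The genes differed in how far they varied between mice of the same genotype. The coefficient of variation among KO libraries ran from 3.74% for Smad2 and 3.81% for Skil to 26.0% for Ski, where the median gene of at least 10 CPM had 17.0%. Among WT libraries it ran from 13.7% for Smad2 to 28.0% for Skil and 44.7% for Smad7, where the median gene had 20.9%. In KO, ko_306 was the highest library for 7 of the 10 genes and ko_314 the lowest for 7, and these were also the deepest and the shallowest KO library. In WT, wt_284 was the highest library for 4 genes and each of the other 3 for 2, while wt_312 was the lowest for 5, wt_284 for 3 and wt_310 for 2. The deepest WT library was wt_290, at 10322741 counts, and the shallowest was wt_310, at 6444134 counts. Without ko_306, 1 of the 10 log2 fold changes was positive, and 0 genes passed. The part of depth and of wt_284's marker levels in these values was not tested.

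Levels were ordered per length, as CPM per kilobase of merged exons averaged over the 7 libraries. Tgfb1 led at 22.6 ± 3.86 (SD, n = 7), above 88.0% of the 14924 tested genes with an annotated length. Tgfbr3 at 17.1 ± 3.18, Smad4 at 16.3 ± 2.23, Ski at 15.8 ± 2.87 and Smad3 at 14.1 ± 2.79 followed. The lower group held Smad7 at 7.59 ± 2.65, Smad2 at 6.60 ± 0.654, Tgfbr2 at 6.31 ± 0.937, Tgfbr1 at 6.18 ± 0.870 and Skil at 4.94 ± 1.04, where the median tested gene had 5.37. Skil was the gene below that median. The ranges of each pair of neighbours in this order overlapped. Smad3 was above Smad7 and Tgfbr1 above Skil in 7 of 7 libraries, and Tgfb1 above Tgfbr3 and Ski above Smad3 in 6. Tgfbr3 and Smad4, Smad4 and Ski, Smad7 and Smad2, Smad2 and Tgfbr2, and Tgfbr2 and Tgfbr1 had the first above the second in only 3 or 4 of 7 libraries, and do not differ beyond their spread. The RNA of the co-receptor was thus present above those of both signalling receptors, at 2.72 ± 0.604 times Tgfbr2 in KO (SD, n = 3) and 2.86 ± 1.08 times in WT (SD, n = 4). With the longest annotated transcript as the length, Tgfb1 stood at 44.2, and Skil, at 7.13, moved ahead of Tgfbr1 and Tgfbr2.

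**Figure D3:**
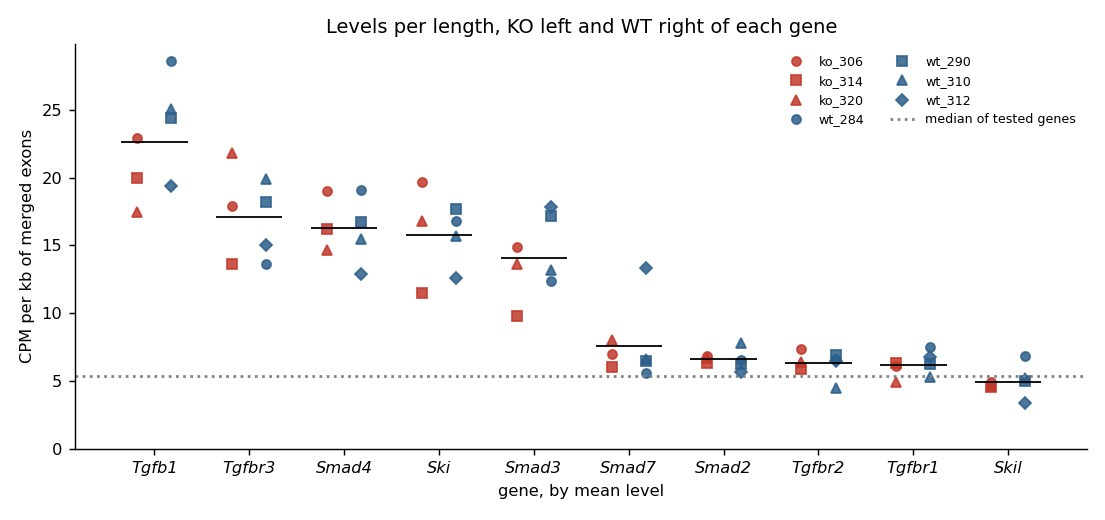
CPM per kilobase of merged exons (vertical axis, starting at 0) of the 10 genes, ordered by mean level, with KO libraries (red) left of WT libraries (blue), the mean of all 7 libraries as a line and the median of tested genes, 5.37, dotted. Tgfb1, Tgfbr3, Smad4, Ski and Smad3 have means of 14.1 or more, and the other genes 7.59 or less.

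Other genes of the pathway were grouped by role. Of 12 genes for ligands and the release of latent TGF-beta, 8 were tested, 0 passed, and 3 had positive and 5 negative log2 fold changes. Ltbp3, which encodes a binding protein of latent TGF-beta, had the highest CPM of this group after Thbs1 and stood at 87.6, 88.4 and 70.3 CPM in KO, against 67.9, 76.7, 93.7 and 68.3 CPM in WT (log2 fold change 0.10). Furin, the protease that cleaves the TGF-beta precursor, had 69.6, 70.8 and 55.5 CPM in KO, against 95.6, 71.9, 76.9 and 69.7 CPM in WT, a log2 fold change of -0.27 ± 0.18 (SE) with an unadjusted edgeR p of 0.163. Thbs1, which encodes the activator thrombospondin 1, had 14.6, 95.6 and 69.8 CPM in KO, against 374.3, 83.6, 123.6 and 7.83 CPM in WT, and its log2 fold change was -1.30 with wt_284 and -0.26 without it. The ligand Tgfb3 had 1.34 to 4.33 CPM in KO and 2.91 to 4.88 CPM in WT (log2 fold change -0.50), and Ltbp1 had 1.27 to 1.94 CPM in KO and 1.67 to 6.57 CPM in WT (-1.06). Tgfb1 was thus the ligand with the most RNA in these libraries, per length as well as in CPM, with Tgfb2 at 0 to 2.24 CPM in KO and 0 to 2.05 CPM in WT.

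Of 13 other receptors and receptor-binding proteins, 11 were tested, 0 passed, and 4 had positive and 7 negative log2 fold changes. Eng, which encodes the co-receptor endoglin, had 172.6, 169.3 and 143.8 CPM in KO, against 107.9, 173.2, 145.6 and 128.4 CPM in WT, a log2 fold change of 0.22 ± 0.17 (SE). Bmpr2, the type II receptor of bone morphogenetic proteins, had 183.7, 104.5 and 124.9 CPM in KO, against 129.9, 174.9, 135.6 and 115.5 CPM in WT. Both overlapped between genotypes. The type I receptor Acvrl1, the partner of endoglin in endothelium, had 0.861, 0.149 and 0 CPM in KO, against 33.6 CPM in wt_284 and 0 to 3.06 CPM in the other WT libraries. It did not pass the filter once wt_284 was left out. The 8 endothelial markers summed to 97.2 to 154.0 CPM in KO and 111.9 to 166.0 CPM in WT, with 111.9 CPM in wt_284. Most of that sum came from Tek, at 55.3 to 67.9 CPM in KO and 53.9 to 73.3 CPM in WT, and Egfl7, at 33.7 to 81.1 CPM in KO and 39.9 to 86.6 CPM in WT, while Cdh5 had 0 CPM in KO and 0 to 0.755 CPM in WT. The part of other cells in the Acvrl1 values was not tested. Bmpr1a (log2 fold change -2.33) had 0 to 1.89 CPM in KO and 0 to 7.15 CPM in WT, and Acvr2b (-0.95) had 1.19 to 8.61 CPM in KO and 3.76 to 11.7 CPM in WT.

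Of the other 4 SMAD genes, 3 were tested and 0 passed. Smad5 and Smad1, the transducers of the BMP branch, had log2 fold changes of 0.18 and 0.35. Smad1 stood at 40.3, 39.1 and 47.2 CPM in KO, against 21.8, 39.1, 43.3 and 28.6 CPM in WT, and Smad5 at 72.8 to 119.2 CPM in KO and 74.1 to 110.1 CPM in WT. The inhibitory Smad6 had 2.24 to 6.50 CPM in KO and 2.31 to 11.5 CPM in WT (log2 fold change -0.51). Smad9 had 0 counts in all 7 libraries, which allows up to 0.258 to 0.447 CPM in KO libraries and 0.283 to 0.458 CPM in WT libraries (3 counts each, for counting error only).

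All 21 regulators of SMAD activity were tested, and 0 passed, with 9 positive and 12 negative log2 fold changes and a median of -0.00227. The corepressor gene Ncor1 had 552.2 to 583.6 CPM in KO and 562.1 to 663.3 CPM in WT, and the coactivator gene Crebbp 334.5 to 387.9 CPM in KO and 325.4 to 415.9 CPM in WT. The related coactivator gene Ep300 had a log2 fold change of -0.26, the ubiquitin ligase gene Smurf1 -0.35 and the kinase gene Map3k7 -0.20. Pmepa1, which encodes a membrane inhibitor of the pathway, had 1.49 to 4.58 CPM in KO and 1.98 to 9.93 CPM in WT (-0.81). The smallest unadjusted edgeR p of this group was 0.176.

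Of 14 genes listed as targets, 10 were tested, 0 passed, and 1 had a positive and 9 a negative log2 fold change. No expected direction was set for these genes, so their signs are not a measure of signalling. Their median was -1.50 with all libraries, beside -0.0189 over all tested genes, of which 52.4% were negative. Without wt_284 the median was -0.157 for the 9 target genes tested, beside 0.00104 over all tested genes. For 15 myeloid markers it was -3.93 with all libraries, and for 14 it was -1.58 without wt_284. Among the target genes, Cdkn1a had 16, 6 and 1 counts in KO and Id1 had 5, 2 and 5, so their log2 fold changes rest on few counts. Tgfbi, which encodes a secreted matrix protein, had 24.9, 16.0 and 18.8 CPM in KO, against 148.1, 28.7, 31.6 and 34.3 CPM in wt_284, wt_290, wt_310 and wt_312. Every KO library lay below every WT library, which 2.43% of tested genes showed in this direction. Its log2 fold change was -1.60 ± 0.71 (SE, unadjusted edgeR p 0.0613, adjusted p 0.992). Without wt_284 the log2 fold change was -0.66 ± 0.27 (unadjusted edgeR p 0.0266, adjusted p 0.999). Of the 15 myeloid markers, 4 were likewise separated and 11 overlapped between genotypes. The summed level of the list in wt_312, at 239.4 CPM, lay within the KO range of 218.4 to 478.6 CPM. Single markers of wt_312 lay on either side of KO. Mpo, Ly6c2, Irf8, Fcer1g and Ly86 were above the KO range, and Elane, Csf1r, Lyz2 and Itgam below it. The other markers of the list lay within the KO range. The part of myeloid RNA in the Tgfbi values was not tested. Junb, an immediate-early transcription factor, had 16.8, 9.84 and 16.6 CPM in KO, against 98.2, 26.1, 36.7 and 12.3 CPM in WT, with overlapping groups and a log2 fold change of -1.58, or -0.79 without wt_284.

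The remaining targets include inhibitors of the cell cycle. Cdkn1c, which encodes the cell cycle inhibitor p57 and is a known TGF-beta target in blood progenitors, had 22.6, 18.5 and 22.0 CPM in KO, against 16.1, 19.8, 21.1 and 29.8 CPM in WT. The KO values lay inside the WT range, with a log2 fold change of -0.04 and an interval from -0.64 to 0.56. Cdkn1a, which encodes p21, had 0.127 to 1.38 CPM in KO and 0.764 to 8.24 CPM in WT, with the highest value in wt_284 (log2 fold change -2.08, or -1.20 without wt_284). Id1, an inhibitor of basic helix-loop-helix factors, had 0.298 to 0.637 CPM in KO and 0 to 5.70 CPM in WT. Klf10, an early target of TGF-beta, had 72.7, 55.8 and 93.1 CPM in KO, against 64.0, 80.6, 84.5 and 81.3 CPM in WT (-0.07). The target with the highest CPM, with no allowance for length, was Tsc22d1. It had 149.6 to 183.0 CPM in KO and 132.2 to 163.0 CPM in WT (0.14). Ccn2, a target in stromal cells, had 0 counts in all 7 libraries.

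**Figure D4:**
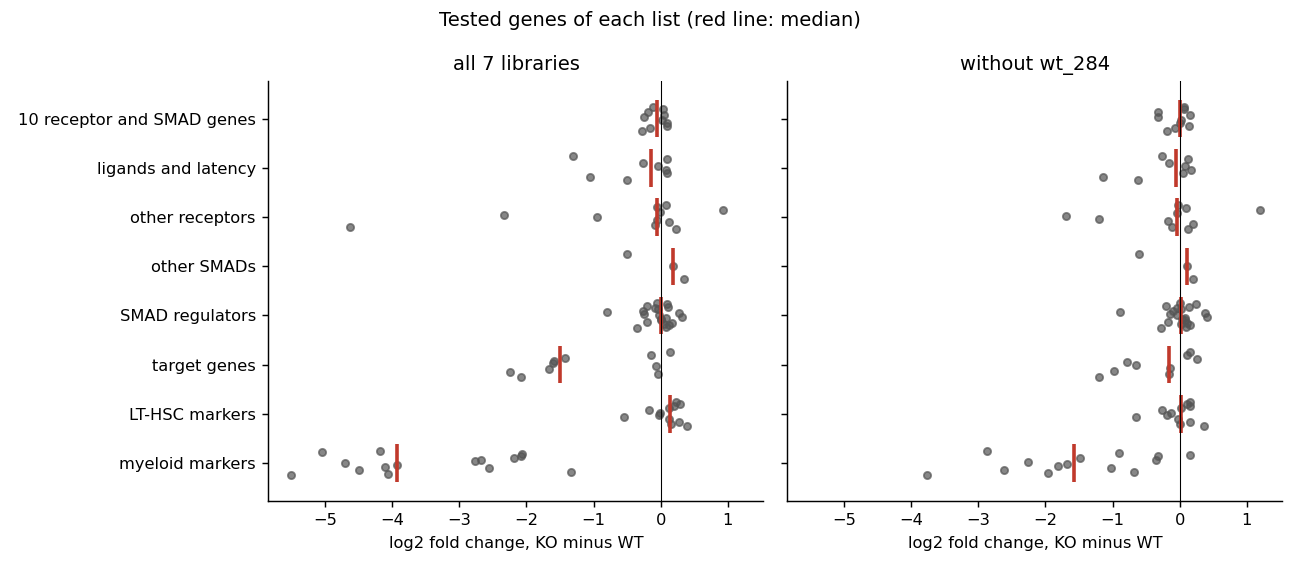
Log2 fold change, KO minus WT (horizontal axis), of each tested gene (grey points) by list, with the median in red, for all 7 libraries (left) and without wt_284 (right). The 10 receptor and SMAD genes lie near 0 in both panels, while the median of target genes goes to -0.157 without wt_284 and that of myeloid markers to -1.58.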

How the data were processed

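RNA of LT-HSCs from 3 KO and 4 WT mice was sequenced. The authors deposited estimated counts of each gene in whole numbers, with no scaling. Per the submitters' processing notes, cutadapt and Salmon were used. Their versions, the annotation and the summing of transcripts into genes are not stated there. Each of the 7 columns matched 1 sample's label, which left 0 unused. Positions and lengths came from GENCODE M21 (GRCm38), which held 98.1% of identifiers in the same version.

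KO was set against WT in a quasi-likelihood model of edgeR 4.0.16 (R 4.3.3), robust, with TMM normalization after filterByExpr. P-values were adjusted by Benjamini-Hochberg over 15372 genes, with a threshold of 0.05. Standard errors are the log2 fold change over the square root of F. The fit was tested on simulated counts. Alternatives used DESeq2 1.42.0, limma 3.58.1, other normalization and filters, and fewer mice. Each mouse number occurs once, and neither litters nor batches are labelled. Genes named are the 10 members, and of each pathway list the 4 of smallest p and the 2 of highest CPM. Cdh5, Hoxb5, Ly6a, Tgfb2, Smad9, Cdkn1c and Ccn2 were added after their values were seen. The myeloid markers placed above or below KO in wt_312, other than Lyz2, were also named after their values were seen. A further target gene is not reported here. Of marker lists the rule takes the 2 of highest CPM, of which those that bear on a result are printed. The members and lists were chosen with earlier results of these data known.

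Summed CPM of megakaryocyte markers was 96.9 to 128.2 in KO and 62.2 to 167.5 in WT, of B cell markers 11.5 to 16.0 in KO and 12.1 to 98.2 in WT, of T and NK cell markers 7.75 to 9.30 in KO and 4.11 to 30.3 in WT, and of stromal markers 33.5 to 41.9 in KO and 25.1 to 41.1 in WT.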

Additional observations from a re-analysis of the deposited data

Results flagged for a closer look

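Among 53 measures checked in the 4 WT libraries, 7 had 1 library far from the other 3. Chance gives this in about 1 of 20 groups of independent values with a normal spread. These measures share libraries, and some genes were named for a small p, so their number cannot be set against that share. Smad7 was the one among the 10 genes, with 27.3 to 36.4 CPM in KO libraries, 60.2 CPM in wt_312 and 25.2 to 30.0 CPM in the remaining WT mice. The other 6 were all highest in wt_284. Acvrl1 was at 33.6 CPM there and at 0 to 3.06 CPM in the others, and Tgfbi at 148.1 CPM and 28.7 to 34.3 CPM. The myeloid markers S100a9 and Lyz2 were at 3497.2 and 2001.9 CPM, the erythroid marker Hba-a2 at 1843.4 CPM and the B cell marker Ebf1 at 19.0 CPM.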

How the results depend on the processing

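No member passed under any of the 13 alternatives, where the smallest adjusted p of a member ran from 0.725 to 1. Of 130 member fold changes under these alternatives, 113 kept their sign and 17 turned, none of them larger in size than the 0.19 of Smad7 without wt_312. Limma-voom turned Tgfbr3 to -0.03, Smad7 to 0.02 and Ski to -0.05, and mice numbered above 300 alone turned Smad2 to -0.02 and Skil to 0.14 and gave Smad7 -0.50, against -0.18 with all mice. With each mouse left out, log2 fold changes ran from -0.03 to 0.18 for Tgfbr2, -0.07 to 0.26 for Tgfbr3, -0.03 to 0.11 for Smad2, -0.08 to 0.15 for Smad4, -0.32 to 0.19 for Smad7, -0.17 to 0.23 for Ski and -0.25 to 0.06 for Skil. They stayed negative for Tgfb1 (-0.40 to -0.17), Tgfbr1 (-0.24 to -0.04) and Smad3 (-0.39 to -0.07). Genes passing over the whole table were 1 with all libraries, 12 in DESeq2, 81 with no filter, 0 in limma-voom, 7 with mice above 300 and 1 to 3 with each mouse left out. Levels moved beyond their spread with the longest transcript as length for Tgfb1 (44.2 CPM per kb) and Skil (7.13). The median of target genes ran from -1.78 to -0.157 with each mouse left out. No paired analysis was possible, because each mouse number occurs once and the labels do not state litters. The cause of these shifts was not tested.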
